A study of Homo sapiens with 6 samples.

Results

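ODAPH, MYOM3, ISLR2, GAL and CGB8 are 5 human genes best known from tissues far from the liver, and all had fewer than 10 normalized counts on average in LX-2 cells given phosphate-buffered saline (PBS). They were picked out of the 16569 genes of the deposited table by symbol, because each lay near 0 with PBS and far higher with IGFBP-7 in the same comparison. Their differences are for that reason given as a description, without a test. LX-2 cells are immortalised human hepatic stellate cells, which in the liver store vitamin A and lay down matrix after injury, and as 1 line they stand for a single cell source. All cells were of wild-type genotype and grew in DMEM with 2% fetal bovine serum before 18 h without serum. One group then received 100 ng/mL of IGFBP-7, a secreted protein that binds insulin-like growth factors, for 24 h (3 libraries), and the other received PBS for the same time (3 libraries). The comparison describes how much RNA these silent or nearly silent genes carried after IGFBP-7, and what lay around them in the genome and in their pathways.

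The 5 genes fall into separate roles. GAL encodes the precursor of galanin, a neuropeptide that acts through the receptors GALR1, GALR2 and GALR3. CGB8 encodes a beta subunit of chorionic gonadotropin, the hormone of the placental trophoblast, which joins the alpha subunit CGA and signals through LHCGR. ODAPH encodes a secreted phosphoprotein of the enamel matrix, and loss of it causes a failure of enamel mineralisation. ISLR2 encodes a membrane protein with leucine-rich repeats and an immunoglobulin domain, which in mouse neurons binds the receptor Ret. MYOM3 encodes a myomesin, one of the proteins that link thick filaments at the M-band of the sarcomere.

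The IGFBP-7 libraries held 45242993 to 55479940 recovered reads and the PBS libraries 40599380 to 43537923, with 2 reads taken as 1 sequenced fragment. A level of 3 fragments in 1 library, the least that can be told from absence, equals 2.54 to 3.20 normalized counts. Whether the 3 libraries per group are separate cultures is not said in the labels, so p-values reflect only how far these libraries differ, and that difference may be technical. In RNA from a whole culture, more cells with a transcript and more transcript per cell cannot be told apart. Of 13 stellate and myofibroblast markers, 11 were in the table and 8 had at least 100 normalized counts in both groups. Of the 11872 genes tested with limma, 60.6% passed an adjusted p of 0.05.

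With IGFBP-7, GAL showed the most counted RNA per length of the 5 genes, though the level of CGB8, next in order, is uncertain. The GAL normalized counts were 443, 398 and 449 in the IGFBP-7 libraries, against 4.12, 3.93 and 10.7 in the PBS libraries. These counts rest on 433, 470 and 435 fragments with IGFBP-7, against 4, 4 and 10 fragments with PBS. The lowest IGFBP-7 library thus stood far above the highest PBS library, and the PBS signal itself lay above the level of 3 fragments in each library. The means were 430 ± 27.9 normalized counts with IGFBP-7 and 6.24 ± 3.84 with PBS (SD, n = 3 each), a log2 change of 6.02 ± 0.30 (SE) on the log2(normalized count + 1) scale. The ratio of normalized fragments was 69.5, with a 95% interval of 43.8 to 118 that covers counting error only.

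CGB8 lay near the lower end of the 5 log2 changes. It had 224, 211 and 201 normalized counts in the IGFBP-7 libraries, against 6.18, 4.91 and 0 in the PBS libraries. The groups lay apart, and PBS replicate 3 held no fragment of it. Mean levels were 212 ± 11.2 with IGFBP-7 and 3.70 ± 3.26 with PBS (SD, n = 3 each), and the log2 change was 5.93 ± 0.47. The ratio of normalized fragments was 56.4 (95% counting interval 31.3 to 114). The log2 change was 6.45 without PBS replicate 1 and 5.03 without PBS replicate 3, so its place among the 5 rests on single PBS libraries. The CGB genes are near-identical copies, so the share of these reads that belongs to CGB8 is uncertain, as set out with its family further on.

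On this scale, with all 6 libraries, ODAPH and MYOM3 gave the largest log2 changes of the 5, but the order moved with the setting. The ODAPH normalized counts were 509, 453 and 410 in the IGFBP-7 libraries, against 2.06, 2.95 and 2.14 in the PBS libraries. The PBS libraries held 2, 3 and 2 fragments, at or below the level of 3 fragments, and all 3 IGFBP-7 libraries held at least 397 fragments. The means were 457 ± 49.6 with IGFBP-7 and 2.38 ± 0.491 with PBS (SD, n = 3 each). The log2 change was 7.09 ± 0.33, and the ratio of normalized fragments was 191 with a counting interval of 92.5 to 476. MYOM3 stood higher with DESeq2 (7.65, against 7.56 for ODAPH) and without PBS replicate 3 (7.12, against 7.04). With a pseudocount of 5, MYOM3 was the lowest of the 5 at 4.67, below CGB8 at 4.72, GAL at 5.32 and ISLR2 at 5.57.

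ISLR2 carried the highest normalized counts of the 5 in every IGFBP-7 library. The IGFBP-7 libraries had 577, 547 and 611 normalized counts, against 8.24, 1.96 and 15.0 in the PBS libraries. The PBS libraries differed among themselves, with 8, 2 and 14 fragments, and none came near the IGFBP-7 libraries. Averages were 578 ± 31.8 with IGFBP-7 and 8.39 ± 6.50 with PBS (SD, n = 3 each), a log2 change of 6.25 ± 0.32 and a fragment ratio of 70.2 (47.0 to 110). ISLR2 was therefore low with PBS but not at 0.

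MYOM3 came closest to a gene with no RNA in PBS. It had 152, 148 and 118 normalized counts in the IGFBP-7 libraries, against 0, 0 and 2.14 in the PBS libraries. The PBS group held 2 fragments in all and the IGFBP-7 group 438. Mean levels were 139 ± 18.9 with IGFBP-7 and 0.712 ± 1.23 with PBS (SD, n = 3 each). The log2 change of 6.57 ± 0.56 depends strongly on the pseudocount at such a level, and the fragment ratio of 205 has a wide counting interval of 56.4 to 1697.

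**Figure D1:**
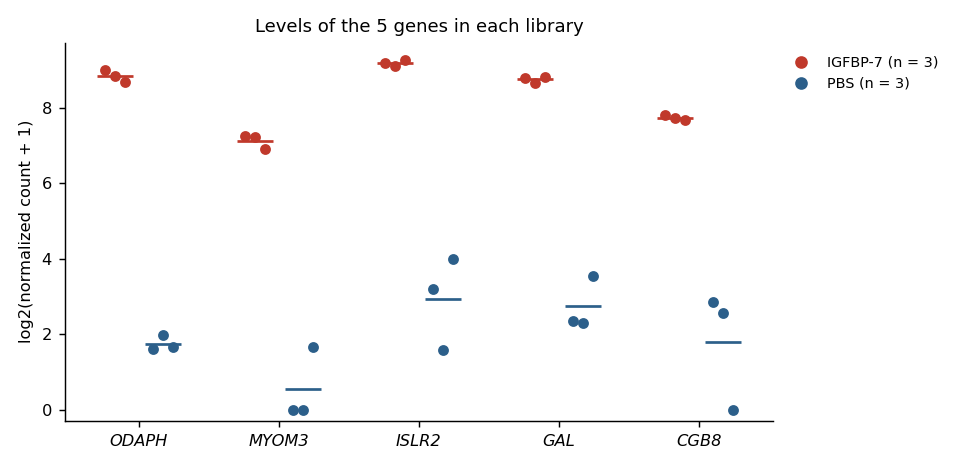
Level of each of the 5 genes in each library, as log2(normalized count + 1) on the vertical axis, with the 3 IGFBP-7 libraries (red) left of the 3 PBS libraries (blue) and a line at each group's mean. No IGFBP-7 point overlaps a PBS point, and the PBS points reach 0 for MYOM3 and CGB8.

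In all 5 genes the groups did not overlap. Among all tested genes 32.9% were higher and 30.6% lower with IGFBP-7 without overlap, and since the genes were chosen on this contrast nothing is read from their count. All 5 passed the filter for testing, a 6-library average of 10 normalized counts or more, and they passed it through the IGFBP-7 libraries. Per kilobase of exon, mean normalized counts with IGFBP-7 ran from 331 for GAL through 240 for CGB8, 223 for ODAPH and 94.8 for ISLR2 to 15.1 for MYOM3. In that order CGB8 and ODAPH did not differ beyond their spread, as their libraries spanned 228 to 254 and 200 to 248 per kilobase. In PBS the same quantity was 4.80 for GAL, 4.19 for CGB8, 1.37 for ISLR2, 1.16 for ODAPH and 0.0769 for MYOM3, where the CGB8 libraries, from 0 to 7.01, overlapped those of each other gene, and those of ISLR2 and ODAPH overlapped too. The place of CGB8 in both orders is uncertain, since many of its reads can match other CGB genes. Exon lengths were those of GENCODE 29, which may not be the annotation behind the counts.

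The libraries did not come in the same order for all 5 genes. IGFBP-7 replicate 3 was the lowest of its group for ODAPH, MYOM3 and CGB8 but the highest for ISLR2 and GAL. PBS replicate 3 was the highest for ISLR2, GAL and MYOM3, and held the only MYOM3 fragments of its group, while CGB8 was at 0 in it. Between the IGFBP-7 libraries the coefficient of variation was 5.30% for CGB8, 5.50% for ISLR2, 6.5% for GAL, 10.8% for ODAPH and 13.5% for MYOM3. The 3484 genes with a mean of 100 to 700 normalized counts in that group had a median of 9.61% (quartiles 6.19% and 13.7%), so CGB8 and ISLR2 lay below the lower quartile and the other 3 genes between the quartiles. For CGB8, fragment counts among the IGFBP-7 libraries differed by less than counting error (chi-square per degree of freedom 0.581), and for ODAPH by more (5.24).

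Few genes made a step of this kind. Of the 4733 genes with a PBS mean below 10 normalized counts, 375 reached a mean of 10 with IGFBP-7, 57 reached 30 (1.2%) and 16 reached 100 (0.338%). The 5 genes are among those 16. In the reverse direction, 4804 genes had a mean below 10 with IGFBP-7, and of these 446 had at least 10 with PBS, 40 at least 30 and 0 at least 100. Leaving out IGFBP-7 replicate 1 gave 13 genes reaching 100 and 2 in the reverse class, and leaving out PBS replicate 2, which puts ISLR2 above the limit of 10, gave 13 and 1. With a PBS mean below 5 as the limit, 7 genes reached 100, with ODAPH, MYOM3 and CGB8 among them.

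By log2 change the 5 genes ranked 3, 5, 6, 7 and 8 among the genes that started low, in the order ODAPH, MYOM3, ISLR2, GAL and CGB8. FOXS1, a forkhead transcription factor gene (log2 change 8.96 ± 0.40), and KANK4, which encodes an ankyrin-repeat scaffold protein (8.39 ± 0.27), stood above them. SCN7A, a sodium channel gene, lay between ODAPH and MYOM3 with 261 ± 27.2 normalized counts with IGFBP-7 and 1.34 ± 1.16 with PBS. Below CGB8 came the noncoding gene GPRACR, with 46.1 ± 14.3 normalized counts with IGFBP-7 and none in any PBS library, at least 44.9-fold higher against a floor of 3 fragments over the group. It was followed by PI16 (5.08 ± 0.51), the nicotinic receptor subunit gene CHRNA9 (5.04 ± 0.29), the potassium channel gene KCNA7 (5.02 ± 0.29), the myosin light chain gene MYL10 (5.01 ± 0.58), MSC-AS1 and the adaptor gene SH2D2A (4.91 ± 0.63). MSC-AS1 had 32.3 ± 13.5 normalized counts with IGFBP-7 and 0 in each PBS library, and whether the counting used strand, which matters for an antisense gene, is not stated.

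Only 9 genes of the table had a log2 change at least as large as that of CGB8, and 8 of them had a PBS mean below 10. The exception was PMEPA1, a membrane protein gene known as a TGF-beta target, with 15242 ± 237 normalized counts with IGFBP-7 and 157 ± 24.0 with PBS. A PBS limit of 10 normalized counts therefore left out 1 gene of comparable change, and it did so by a wide margin.

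**Figure D2:**
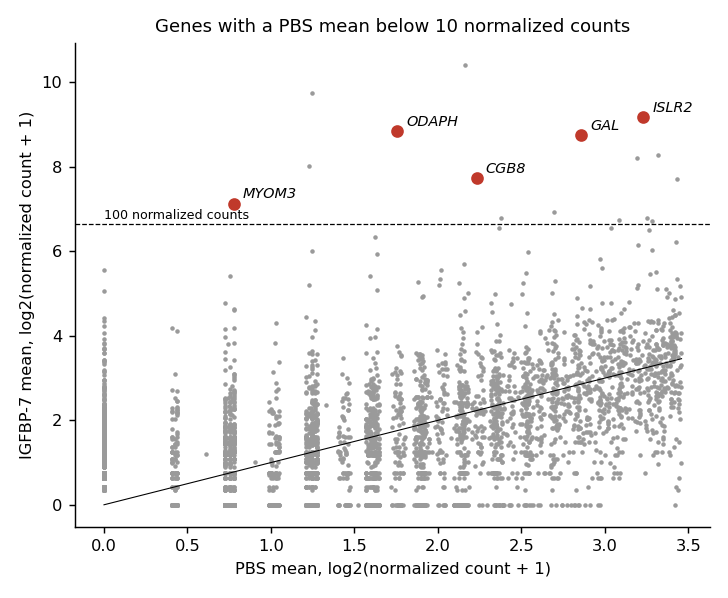
Mean level with IGFBP-7 (vertical axis) against mean level with PBS (horizontal axis), both as log2(normalized count + 1), for the 4733 genes with a PBS mean below 10, with the line of equal level and a dashed line at 100 normalized counts. The 5 genes (red) lie above the dashed line with 11 other genes (grey), far from the bulk.

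Patterns were compared by the Euclidean distance between log2(normalized count + 1) values over the 6 libraries, a measure that includes the level. GAL was nearest to KCNA7 (1.34) and ISLR2 (1.42), and ISLR2 to GAL (1.42) and KCNA7 (2.01). ODAPH lay nearest to GAL (2.08) and SCN7A (2.23). MYOM3 lay nearest to MYL10 (2.30), which had 80.3 ± 14.7 normalized counts with IGFBP-7 and 2.08 ± 2.14 with PBS, and to SH2D2A (2.63). CGB8 lay nearest to SCN7A (1.68), with ODAPH next (2.87). By this measure ISLR2 and GAL were near each other, while MYOM3 had none of the other 4 genes among its 2 closest. The PBS values of the 5 genes rest on 0 to 14 fragments per library, so counting error enters these distances. Its share in them was not tested, and no likeness of regulation is read from them.

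The region before the gene start is shown for ODAPH and MYOM3 because, of the 4 members with a window, these 2 held a searched motif. GAL had no window and was not searched. The letters are the 250 bases before the RefSeq start (GRCh38.p14), 5′ to 3′ on the gene's strand, which is the plus strand for ODAPH (chr4:75555816-75556065) and the minus strand for MYOM3 (chr1:24112136-24112385). Capitals mark the motif matches.
ODAPH: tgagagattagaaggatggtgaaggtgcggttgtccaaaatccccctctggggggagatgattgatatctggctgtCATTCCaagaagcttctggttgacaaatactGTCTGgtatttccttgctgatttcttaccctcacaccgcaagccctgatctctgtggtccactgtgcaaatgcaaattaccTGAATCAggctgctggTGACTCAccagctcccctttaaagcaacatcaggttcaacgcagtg
MYOM3: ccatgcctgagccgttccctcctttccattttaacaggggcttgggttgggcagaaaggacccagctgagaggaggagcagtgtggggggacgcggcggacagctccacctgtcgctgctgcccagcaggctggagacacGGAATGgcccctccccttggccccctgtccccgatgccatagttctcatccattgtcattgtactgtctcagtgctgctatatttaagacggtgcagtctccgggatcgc
The motifs searched on both strands were CAGAC (SMAD), TGANTCA (AP-1), TGACGTC (CREB/ATF), GCGTGGG (EGR), GGAATG (TEAD) and TATAAA, the letters of a core promoter element, and no matches overlapped between motifs. In ODAPH, TGANTCA matched at 62 and 46 bases before the start, CAGAC on the reverse strand at 143 and GGAATG on the reverse strand at 174. In MYOM3, GGAATG matched at 110 bases before the start. Over all 27305 windows of this length, TGANTCA was present in 6.60%, CAGAC in 37.8%, GGAATG in 11.9%, TGACGTC in 3.29%, GCGTGGG in 5.96% and TATAAA in 11.1%. ISLR2 and CGB8 held none of these letter strings in their windows, so no motif was shared by the 4 genes with a window.

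The genes next to each of the 5 were then examined, since they were not used in the choice. The 3 nearest protein-coding genes on each side, by RefSeq order, made 30 neighbours, of which 25 were in the table and 20 were tested. Of the 20, 11 were higher with IGFBP-7, 5 were lower and 4 did not pass, where 31.3% of all tested genes were higher and 29.2% lower. Of the 11, ISLR, STRA6, CGB5 and KCNA7 averaged below 10 with PBS and passed the filter only through the IGFBP-7 libraries, so they had to differ and nothing is read from the count. The median log2 change of the 20 was 0.25, against 0.02 over all tested genes. Among these 20, CGB5 and CGB7 are copies of CGB8, and of the other 18 genes 9 were higher, 5 lower and 4 not called. Within this distance, tested neighbours with a change of more than 1 on the log2 scale lay beside CGB8 and ISLR2 and not beside ODAPH, MYOM3 or GAL.

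All 4 tested neighbours of CGB8 were higher with IGFBP-7, although CGB5 and KCNA7 averaged below 10 with PBS and could be tested only through their IGFBP-7 libraries. KCNA7 had 305, 352 and 280 normalized counts in the IGFBP-7 libraries, against 8.24, 5.89 and 12.8 in the PBS libraries, a log2 change of 5.02 ± 0.29 (limma, adjusted p = 5.46e-21). NTF4, which encodes neurotrophin-4, a ligand of TrkB, had 249, 294 and 292 in the IGFBP-7 libraries, against 10.3, 9.82 and 12.8 in the PBS libraries (log2 change 4.55 ± 0.27, adjusted p = 2.26e-20). In both genes every IGFBP-7 library lay far above every PBS library, and neither gene is a copy of CGB8. CGB5 changed by 4.86 ± 0.75 (adjusted p = 2.26e-07) and CGB7 by 3.57 ± 0.22 (adjusted p = 3.35e-20), while CGB1 and CGB2 were too low to test. From LHB to KCNA7, a run whose ends were not set in advance, 8 neighbours of CGB8 were in the table. All 8 had a positive log2 change of 2.07 to 5.02, and the groups overlapped in 1 of them, CGB2. The CGB genes among them are copies of CGB8. Of all tested genes 32.9% were higher without overlap, and nothing is read from the count in this run. Past the ends of this run, where genes were singled out after their values were seen, the changes were small: GYS1, a glycogen synthase gene, changed by 0.60, PPFIA3 changed by 0.37, and LIN7B (0.10) and C19orf73 (0.21) did not pass. The run lies on both strands, with CGB2 and CGB5 on the plus strand and LHB, CGB3, CGB1, CGB8, CGB7, NTF4 and KCNA7 on the minus strand of GENCODE 29.

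On one side of ISLR2 lay its paralog ISLR and then STRA6, the receptor for retinol-binding protein. ISLR had 17.4, 22.0 and 21.7 normalized counts in the IGFBP-7 libraries, against 0 in each PBS library, at least 20.0-fold higher against a floor of 3 fragments over the group (limma, adjusted p = 1.04e-04). STRA6 had 165, 86.4 and 79.6 in the IGFBP-7 libraries, against 6.18, 0 and 6.41 in the PBS libraries (log2 change 4.81 ± 0.54, adjusted p = 7.02e-11). CCDC33, next in order, averaged 9.70 normalized counts with IGFBP-7 and 1.40 with PBS and was too low to test. On the other side, the nuclear body gene PML was lower by a small step, with a log2 change of -0.17 ± 0.06 (adjusted p = 7.52e-03, and 0.134 without PBS replicate 3), and STOML1 did not pass (0.07 ± 0.10). SEMA7A, a membrane semaphorin gene 5 places from ISLR2 and singled out after its values were seen, had 10449 ± 469 normalized counts with IGFBP-7 and 1894 ± 31.5 with PBS (log2 change 2.46 ± 0.05, adjusted p = 5.72e-39). ISLR and STRA6 averaged below 10 with PBS and could be tested only through their IGFBP-7 libraries, so nothing is read from their p-values. The large changes lay on 1 side of ISLR2.

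Around ODAPH, the ubiquitin ligase gene RCHY1 was higher (0.37 ± 0.08), as was THAP6 (0.23 ± 0.08), while the kinase gene CDKL2 was lower (-0.69 ± 0.19). THAP6 did not pass when libraries were scaled to equal totals (0.09, adjusted p = 0.350), without IGFBP-7 replicate 2 (adjusted p = 0.0562) or without PBS replicate 3 (adjusted p = 0.0540). PARM1 did not pass (-0.30 ± 0.59). Farther out, and singled out after their values were seen, the EGF-family ligand genes EREG, AREG and BTC were lower with IGFBP-7: EREG had 6.18 ± 6.20 normalized counts with IGFBP-7 and 60.0 ± 6.02 with PBS, a log2 change of -3.73 ± 0.60. AREG changed by -2.24 ± 0.32 and BTC by -2.11 ± 0.57. EREG and BTC averaged below 10 with IGFBP-7 and passed the filter only through the PBS libraries. ODAPH thus stood between genes that differed little or were lower with IGFBP-7.

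Around MYOM3, the splicing factor gene SRSF10 was higher (0.27 ± 0.05), and the cytokine receptor genes IL22RA1 (0.10 ± 0.17) and IFNLR1 (0.29 ± 0.16) did not pass. CNR2 and GRHL3 were too low to test. Around GAL, C11orf24 (0.27 ± 0.06) and MRPL21 (0.22 ± 0.07) were higher. The Wnt co-receptor gene LRP5 (-0.84 ± 0.07), TESMIN (-0.95 ± 0.14) and CPT1A, which encodes the carnitine palmitoyltransferase of mitochondrial fatty acid uptake (-0.40 ± 0.06), were lower. With libraries scaled to equal totals, C11orf24 and MRPL21 did not pass. No neighbour of MYOM3 or GAL within 3 places that was tested changed by as much as 1 on the log2 scale.

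**Figure D3:**
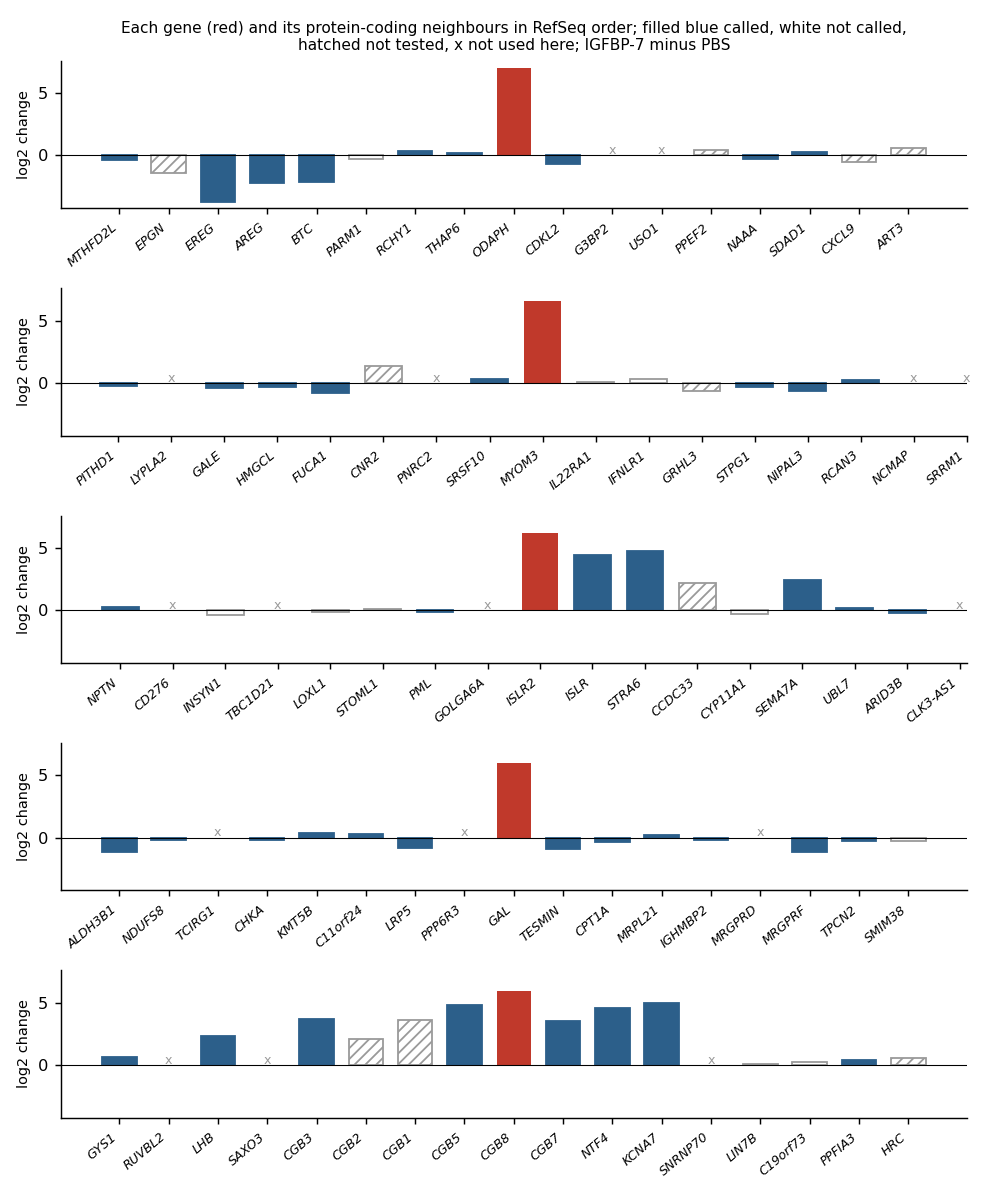
Log2 change, IGFBP-7 minus PBS, of each of the 5 genes (red) and of up to 8 protein-coding neighbours on each side in RefSeq order, with called genes filled blue, genes not called white, genes too low to test hatched and genes not used here marked x. Bars above 4 stand next to CGB8 (CGB5, NTF4 and KCNA7) and ISLR2 (ISLR and STRA6), while no called gene beside ODAPH, MYOM3 or GAL rises as far as 1, and EREG, AREG and BTC near ODAPH lie below -2.

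CGB8 belongs to a family of CGB genes that share the cluster with LHB, the beta subunit gene of luteinising hormone. CGB7 had the most normalized counts of the family in both groups, without regard to length, with 417, 456 and 415 normalized counts in the IGFBP-7 libraries, against 20.6, 47.1 and 44.9 in the PBS libraries. CGB5 had 49.1, 37.3 and 38.2 in the IGFBP-7 libraries, against 2.06, 0 and 0 in the PBS libraries. CGB3 had 47.0, 30.5 and 42.4 in the IGFBP-7 libraries, against 0, 5.89 and 3.20 in the PBS libraries, a log2 change of 3.71 ± 0.66 (limma, adjusted p = 3.58e-06). In these 3 genes no libraries overlapped between groups, and CGB7 was already present with PBS. CGB5 and CGB3 averaged below 10 with PBS and passed the filter only through the IGFBP-7 libraries. LHB had 104, 83.8 and 71.3 in the IGFBP-7 libraries, against 11.3, 23.6 and 15.0 in the PBS libraries (2.35 ± 0.34, adjusted p = 5.77e-08). CGB1 averaged 12.0 ± 4.66 with IGFBP-7 and was at 0 in each PBS library, at least 11.5-fold higher against 3 fragments over the group. CGB2 averaged 7.27 ± 7.90 with IGFBP-7 and 0.712 ± 1.23 with PBS, and its libraries overlapped.

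The sequences of these genes are close enough to matter for the counts. Over the aligned bases of the GENCODE 29 transcripts, CGB8 was 99.5% identical to CGB5, 99.1% to CGB3, 98.7% to CGB1, 98.6% to CGB2, 97.0% to CGB7 and 92.5% to LHB. Of all stretches of 100 bases in the CGB8 transcript, 64.2% occur unchanged in the transcript of another gene, and of stretches of 150 bases 52.3% do. For ODAPH, MYOM3, ISLR2 and GAL that share was 0 at both lengths. No source used here says how the authors' counting treated reads that match several genes, so the levels of single CGB genes are uncertain.

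Their starts are near-copies too, as the 250 bases before the RefSeq starts of CGB8 (chr19:49049112-49049361, minus strand) and CGB5 (chr19:49043598-49043847, plus strand) show. No letters are capitals, since no searched motif was found in either.
CGB8: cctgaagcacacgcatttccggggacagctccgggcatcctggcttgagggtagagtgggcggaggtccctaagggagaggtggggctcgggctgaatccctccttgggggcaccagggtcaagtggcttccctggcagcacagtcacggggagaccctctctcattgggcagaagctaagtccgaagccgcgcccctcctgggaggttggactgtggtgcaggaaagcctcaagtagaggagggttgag
CGB5: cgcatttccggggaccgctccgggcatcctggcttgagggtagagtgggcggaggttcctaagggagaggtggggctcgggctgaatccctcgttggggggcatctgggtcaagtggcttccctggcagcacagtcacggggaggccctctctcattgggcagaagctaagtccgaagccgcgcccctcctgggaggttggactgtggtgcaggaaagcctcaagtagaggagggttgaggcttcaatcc
Over windows that also hold the 50 bases after the start, CGB8 was 96.9% identical to CGB5 over 289 aligned bases and 98.3% identical to CGB3 over 290. Only 53 bases of the CGB7 window aligned with it, at 62.3% identity. CGB7 was higher with IGFBP-7 as well, and most of its window could not be aligned with that of CGB8.

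Summed over the 6 CGB genes, the normalized counts were 771, 748 and 709 in the IGFBP-7 libraries, against 28.8, 57.9 and 50.2 in the PBS libraries. The sum averaged 742 ± 31.3 with IGFBP-7 and 45.7 ± 15.1 with PBS (SD, n = 3 each), a log2 change of 4.05. This change does not depend on how counted reads were split among these 6 genes. Reads counted for LHB or another gene outside the sum that shares stretches with CGB8 could still alter it. CGB8 made up 28.6% of the sum with IGFBP-7 and 8.10% with PBS. Per kilobase of exon, CGB8 had 240 normalized counts with IGFBP-7 and 4.19 with PBS, and CGB7 had 127 with IGFBP-7 and 11.1 with PBS.

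**Figure D4:**
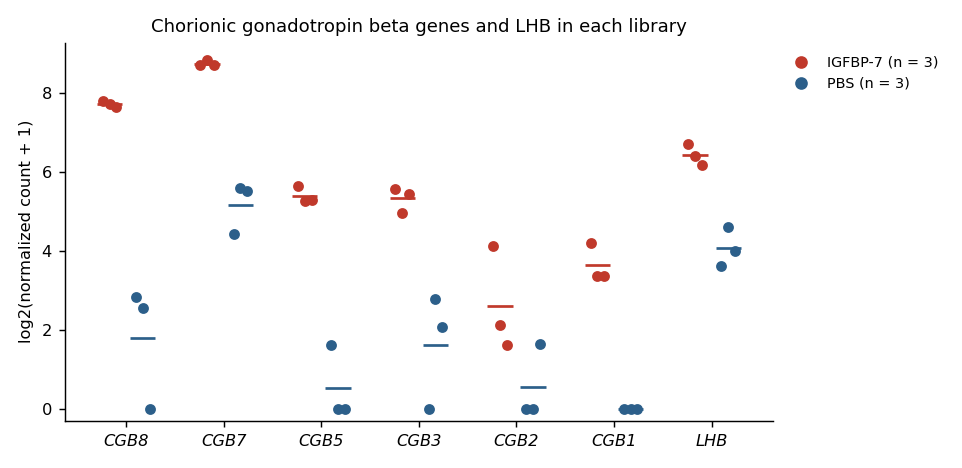
Level of the 6 CGB genes and LHB in each library, as log2(normalized count + 1), with the IGFBP-7 libraries (red) left of the PBS libraries (blue) and a line at each group's mean. CGB7 has the highest PBS points, CGB1 lies at 0 in every PBS library, and the groups overlap only for CGB2.

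The partner subunit moved the other way. CGA, the common alpha subunit without which no chorionic gonadotropin dimer forms, had 3.99 ± 2.25 normalized counts with IGFBP-7 and 23.8 ± 4.05 with PBS (log2 change -2.41 ± 0.64, adjusted p = 1.07e-03). The receptor gene LHCGR lay under the level of 3 fragments in each library. Of 60 genes of the gonadotropin family and of the placenta, 45 were in the table and 26 were tested, with 9 higher (34.6%), 14 lower and 3 not called, where 31.3% of all tested genes were higher and 29.2% lower. Their median log2 change was -0.48, against 0.02 over all tested genes. The list was drawn up with earlier results of these data known. CGB3 and CGB5 averaged below 10 with PBS and passed the filter only through the IGFBP-7 libraries. CGA, PSG1, PSG7 and PSG8 averaged below 10 with IGFBP-7 and passed only through the PBS libraries, so nothing is read from the counts. The largest rises were CGB5, CGB3, CGB7 and the transcription factor gene GATA3, with 294 ± 15.9 normalized counts with IGFBP-7 and 56.1 ± 1.41 with PBS (2.37 ± 0.18, adjusted p = 4.70e-16). The largest falls were the pregnancy-specific glycoprotein genes PSG7 (-2.84 ± 0.67), PSG1 (-2.77 ± 0.51) and PSG8 (-2.44 ± 0.68), with CGA next. Of the 7 tested PSG genes, which were singled out after their values were seen and are themselves close copies of each other, 6 were lower and 1 did not pass. Of the tested beta subunit genes beside CGB8, CGB7 and LHB averaged at least 10 in both groups and were higher, as were CGB3 and CGB5. The alpha subunit gene and 6 PSG genes were lower.

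The galanin receptors stayed low. GALR2 had 14.3, 23.7 and 20.7 normalized counts in the IGFBP-7 libraries, against 10.3, 6.87 and 8.54 in the PBS libraries, a log2 change of 1.09 ± 0.56 that did not pass (adjusted p = 0.0854). GALR1 held 2 fragments with IGFBP-7 and 0 with PBS, and GALR3 averaged 3.4 normalized counts with IGFBP-7 and 1.4 with PBS. Of 56 genes of the galanin system, of other peptide hormones and of their processing, 38 were in the table and 22 were tested. Of these 4 were higher (18.2%), 8 were lower and 10 did not pass, against 31.3% higher and 29.2% lower over all tested genes, with the same median log2 change of 0.02. The rises were PTHLH, the parathyroid hormone-related protein gene (2.78 ± 0.14), with 647 ± 58.4 normalized counts with IGFBP-7 and 93.1 ± 9.72 with PBS, SCG5 (2.25 ± 0.20), a secretory granule chaperone gene, EDN1 for endothelin (1.25 ± 0.19) and UCN2 for urocortin (0.92 ± 0.15). The largest falls were APLN for apelin (-2.29 ± 0.21), NPPB for a natriuretic peptide (-2.19 ± 0.26), ADM for adrenomedullin (-2.04 ± 0.08) and VGF (-1.64 ± 0.23). SPX, a galanin relative that can activate GALR2 and GALR3 and that was singled out after its values were seen, had 76.7 ± 5.30 normalized counts with IGFBP-7 and 237 ± 51.3 with PBS (-1.59 ± 0.19, adjusted p = 2.82e-10).

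The genes that work beside ODAPH differed in both directions. Of 28 such genes 23 were in the table, 12 lay below 10 normalized counts in both groups, and 10 were tested, with 4 higher (40%), 5 lower and 1 not called (median log2 change -0.43). Over all tested genes these shares were 31.3% higher and 29.2% lower, with a median of 0.02. Of the 4, ITGB6 averaged below 10 with PBS and passed the filter only through the IGFBP-7 libraries, so nothing is read from the count. ENAM, the gene of enamelin, averaged 2.0 normalized counts with IGFBP-7 and 4.0 with PBS, and AMTN averaged 0.91 with IGFBP-7 and 0.65 with PBS. Among the genes that rose were ITGB6, an epithelial integrin subunit needed for enamel, with 62.2 ± 3.08 normalized counts with IGFBP-7 and 4.82 ± 3.17 with PBS (3.59 ± 0.50, adjusted p = 1.76e-08), PHEX (1.18 ± 0.25) and RELT (0.26 ± 0.06). RELT did not pass when libraries were scaled to equal totals (0.12, adjusted p = 0.0862). The largest falls were COL17A1 (-1.82 ± 0.32), the kinase gene FAM20C, whose product phosphorylates secreted matrix proteins (-0.86 ± 0.07), LAMB3 (-0.66 ± 0.05) and SPP1 for osteopontin (-0.53 ± 0.18). SPP1 did not pass without IGFBP-7 replicate 2 (-0.33, adjusted p = 0.134) or without PBS replicate 2 (-0.47, adjusted p = 0.0550).

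MYOM3 differed from its paralogs. MYOM1 was lower, with 45.4 ± 4.41 normalized counts with IGFBP-7 and 79.5 ± 5.42 with PBS (-0.79 ± 0.26, adjusted p = 8.19e-03). MYOM2 had 70.2 with IGFBP-7 and 69.3 with PBS (adjusted p = 0.997), and the giant sarcomere gene TTN (1760 with IGFBP-7 and 1759 with PBS, adjusted p = 0.984) did not pass. Of 62 sarcomere genes 52 were in the table, 25 lay below 10 in both groups, and 25 were tested, with 4 higher (16%), 6 lower and 15 not called (median log2 change -0.02). All tested genes stood at 31.3% higher and 29.2% lower, with a median of 0.02. Of the 4, MYOZ1 averaged below 10 with PBS and passed the filter only through the IGFBP-7 libraries, so nothing is read from the count. The largest rises were MYOZ1 of the Z-disc, with 45.9 ± 10.8 normalized counts with IGFBP-7 and 3.05 ± 0.897 with PBS (3.53 ± 0.56), cardiac actin ACTC1 (1.79 ± 0.17), TPM1 for tropomyosin (1.71 ± 0.04) and TMOD1 (0.22 ± 0.08), which did not pass with libraries scaled to equal totals. The largest falls were MYPN for myopalladin (-1.79 ± 0.22), ANKRD1 (-1.23 ± 0.10), TMOD4 (-0.97 ± 0.42) and MYOM1. TMOD4 did not pass without IGFBP-7 replicate 1 (adjusted p = 0.164), PBS replicate 1 (0.0543) or PBS replicate 2 (0.165), nor with no filter (0.0787), quantile normalization (0.0549) or edgeR (0.0522). Several of these genes are also active outside striated muscle, TPM1 among them.

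Neuronal leucine-rich-repeat genes related to ISLR2 differed in both directions. Of 41 such genes and ISLR2 partners, 32 were in the table and 22 were tested, with 5 higher (22.7%), 7 lower and 10 not called (median log2 change 0.04), against 31.3% higher, 29.2% lower and a median of 0.02 over all tested genes. Besides ISLR the largest rises were SLITRK6 (2.20 ± 0.70), AMIGO2, an adhesion protein gene with 8538 ± 237 normalized counts with IGFBP-7 and 2256 ± 108 with PBS (1.92 ± 0.05, adjusted p = 4.17e-34), and LRFN1 (0.88 ± 0.37). SLITRK6 did not pass without PBS replicate 2 (0.98, adjusted p = 0.113) or with DESeq2 (adjusted p = 0.284). LRFN1 did not pass with libraries scaled to equal totals, without IGFBP-7 replicate 1 (adjusted p = 0.170), without IGFBP-7 replicate 3 (0.0809), without PBS replicate 1 (0.226), or with no filter (0.0829), edgeR (0.0692) or DESeq2 (0.0565). Without IGFBP-7 replicate 2 or PBS replicate 1, 4 genes of the list were lower. ISLR and SLITRK6 averaged below 10 with PBS and passed the filter only through the IGFBP-7 libraries. ELFN2 averaged below 10 with IGFBP-7 and passed only through the PBS libraries, so nothing is read from these counts. The largest falls were ELFN2 (-2.34 ± 0.49), AMIGO1 (95.1 ± 3.52 normalized counts with IGFBP-7 and 195 ± 40.8 with PBS), the GDNF co-receptor gene GFRA1 (492 ± 13.6 with IGFBP-7 and 984 ± 60.2 with PBS) and SLITRK5 (-0.92 ± 0.10). RET, whose product binds ISLR2 in mouse, was near the limit of the test, with an average of 16.5 normalized counts with IGFBP-7 and 11.9 with PBS (adjusted p = 0.454).

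**Figure D5:**
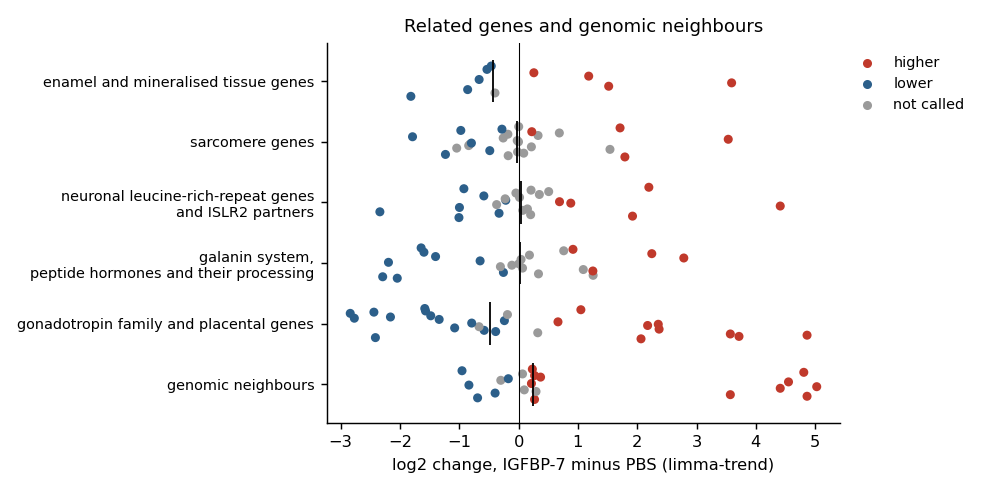
Log2 change, IGFBP-7 minus PBS, of the tested genes of each related list and of the genomic neighbours, with genes called higher red, lower blue and not called grey, and a bar at each list's median. In each list both directions occur, and the points beyond 4 are CGB5, ISLR, NTF4, STRA6 and KCNA7.

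Markers of the tissues in which the 5 genes are best known were near 0 or differed in both directions, and their part in the results was not tested. The 3 ameloblast markers in the table summed to 1.69 to 11.2 normalized counts in the IGFBP-7 libraries and 0 to 11.8 in the PBS libraries, and MMP20 was at 0 with PBS. The table held 8 skeletal muscle markers, of which 7 lay below 10 in both groups, with MYOD1 and MYF5 at 0 with IGFBP-7 and PAX3 and DES at 0 with PBS. Their sums were 88.1 to 131 with IGFBP-7 and 71.7 to 112 with PBS, nearly all from MYH3. Of 12 neuronal markers 8 were tested, with 2 higher and 4 lower against 31.3% higher and 29.2% lower over all tested genes, and the sums of 4807 to 5068 with IGFBP-7 and 3684 to 3952 with PBS came mostly from TUBB3. Of 9 trophoblast markers 5 were tested, with GATA3 higher and CGA and PSG1 lower. Their sums were 798 to 877 with IGFBP-7 and 495 to 650 with PBS, with GCM1 and INSL4 at 0 with IGFBP-7. Among the lower markers, NEFL, NEFM, CGA and PSG1 averaged below 10 with IGFBP-7. They passed the filter only through the PBS libraries, so nothing is read from these counts. The label of genes foreign to this tissue thus holds for the ameloblast markers beside them, while single muscle, neuronal and placental genes, such as MYH3, TTN, TUBB3 and CGB7, were present in these cells with PBS as well.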

How the data were processed

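RNA of LX-2 cells was sequenced in 6 libraries, 3 per group, made from poly(A) RNA by a strand-specific kit. Groups were taken from the treatment label. The deposited table gives, per the file headers, normalized counts on a linear scale, the authors' signal per gene. The submitters' processing notes name STAR, Subread, featureCounts and DESeq2, with neither version nor role. Build, annotation and strand setting were not given in the sources used here. In each library the values were whole multiples of a single step, which gave back whole reads (100% within 0.01). Genes averaging 10 normalized counts or more were tested by limma-trend (limma 3.58.1, R 4.3.3) on values of log2(normalized count + 1), two-sided, as IGFBP-7 minus PBS, with Benjamini-Hochberg adjusted p under 0.05 as the call: 3721 were higher and 3471 lower. As the values are normalized, this replaced a count test, and edgeR 4.0.16 on the recovered reads, run as an alternative, called 3541 higher and 3562 lower. The fit was checked on simulated data. Libraries of a group differed by more than sampling noise (chi-square per degree of freedom 5.10 to 6.93), so all were counted.

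The 5 genes and the gene lists were chosen with earlier results of these data known. Named besides the 5 genes were their receptors, paralogs and partners, up to 4 called genes of each list in each direction, called neighbours, the 2 genes nearest in pattern, the 10 other genes with the largest changes from a low start, and genes on either side of the limit. Those outside this rule are marked, and some genes that it names are not reported here. Neighbour order and promoter windows are those of RefSeq, exon lengths and transcripts those of GENCODE 29. Alternatives were other pseudocounts, filters, scalings and tools, a replicate block and leaving out each library.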

Additional observations from a re-analysis of the deposited data

How the results depend on the processing

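Among the named genes, no call reversed direction under any alternative run. The balance over all tested genes, 3721 higher and 3471 lower, did turn with library-total scaling and with edgeR (3541 and 3562). Library-total scaling, which shifts the median of all tested log2 changes by -0.14, gave 2432 genes higher and 4176 lower, 7 higher neighbours and 3 higher neuronal leucine-rich-repeat genes, and DESeq2 gave 3 of that neuronal list as well. For ODAPH the log2 change was 7.32 and 5.97 with pseudocounts of 0.5 and 5, 7.52 with edgeR and 7.56 with DESeq2. For MYOM3 it was 7.32 and 4.67 with these pseudocounts, 7.52 with edgeR and 7.65 with DESeq2. A pseudocount of 5 gave 5.32 for GAL and 4.72 for CGB8, and the CGB genes summed gave 4.05. Chosen after the data were seen, 8 neighbours on each side gave 21 higher and 23 lower of 54 tested. With a PBS mean below 5, 7 genes reached 100. Leaving out 1 library gave 3398 to 3619 genes higher and 3176 to 3308 lower. It gave 3 to 5 neuronal leucine-rich-repeat genes higher and 4 to 7 lower, 9 to 11 neighbours higher and 4 to 5 lower, and 13 to 16 genes reaching 100. Log2 changes were then at least 7.01 and at most 7.2 for ODAPH, 6.30 to 7.12 for MYOM3, 5.57 to 6.79 for ISLR2, 5.80 to 6.42 for GAL and 5.03 to 6.45 for CGB8. The replicate block gave 3715 higher and 3462 lower and ended no call among the named genes. Same-numbered libraries did not deviate together (r = -0.05, 0.01 and -0.05 for replicates 1 to 3). A weak shared effect could give values this small, so this check cannot settle whether the numbers pair the libraries. Among the named genes a call was lost in 25 combinations of gene and alternative, and the cause was not tested. Depth limits every PBS value near 3 fragments per library.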
